A study of Gallus gallus with 10 samples.

Results

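Collagen IX is built from 3 chains, encoded by COL9A1, COL9A2 and COL9A3, and these 3 genes are described here out of 12464 genes measured in embryonic chicken retina. They were chosen by their measured values in the same libraries: the level of each chain per library, the ratios between the chains and the change within each embryo after lens removal. These values are therefore given as a description, without a test. The study asked which retinal genes depend on the lens while the front of the eye forms and the eye grows. Lens-removed retinas came from wild-type Dekalb white embryos whose lens was pulled out of 1 eye at Hamburger and Hamilton stage 23 (about embryonic day 4), and they were collected 6 h later. Control retinas came from the other, unoperated eye of the same embryos at the same time. There were 5 lens-removed and 5 control libraries, 1 retina each, paired by embryo. The operated eye had lost its lens and had also been slit open dorsally, and the design cannot tell these apart. Each control eye shared its embryo with an operated eye.

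Collagen IX does not form fibrils by itself. Its molecule joins the products of COL9A1, COL9A2 and COL9A3 in a triple helix interrupted by short flexible stretches, and it sits on the surface of fibrils made of collagens II and XI. In the chick it is also a proteoglycan, with a chondroitin sulfate chain on the product of COL9A2. It occurs in cartilage and in the vitreous body of the eye. In the chick embryo its vitreous form is made by the retina, COL9A1 transcripts mark the rim of the optic cup that becomes ciliary body, and a short form of the COL9A1 product arises from another promoter. Levels here are per gene, so the short and long forms are counted together. In humans, inherited loss of a collagen IX chain can cause Stickler syndrome, with vitreous defects, myopia and joint disease.

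Levels are normalised read counts, that is, reads per gene scaled by the study's authors to nearly equal library totals (979286 to 1033235). From the spacing between low values, 1 read was worth between 0.0385 and 0.0536 normalised counts, depending on the library. On that scale the 30 member values rested on 5465 to 14903 reads each, so that counting alone gives an error of 0.819% to 1.35% of the level. Taken to a common total, the worth of a read gives an effective library size of 18671000 to 26005000 reads. This size is not the number of reads counted in each library. All 3 genes passed the filter for testing (a mean of at least 10), which 9076 genes did. Of these, limma called 2075 changed at a Benjamini-Hochberg adjusted p under 0.05 (22.9%), 963 of them higher (10.6%) and 1112 lower (12.3%) in lens-removed retinas. Embryo 5 stood apart: its control library held the highest summed levels of pigment epithelium, periocular mesenchyme and red cell markers, as given below, and its lens-removed library was the shallowest. Values without embryo 5 are given for several of the calls and levels that changed when it was left out.

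COL9A1 encodes the alpha 1 chain, which can carry a large globular domain at its amino end. Its level was lower in the lens-removed retina of every embryo. In embryos 1 to 5 it stood at 298, 316, 361, 435 and 315 normalised counts in lens-removed retinas, against 458, 532, 454, 478 and 496 in control retinas. The highest lens-removed library (embryo 4) lay below the lowest control library (embryo 3), so the groups did not overlap. The mean was 345 ± 55.4 in lens-removed and 484 ± 31.9 in control retinas (SD, n = 5 each). The within-embryo change averaged -0.50 ± 0.26 (SD, n = 5) on the log2(value + 1) scale, or 0.708-fold. It was unequal among embryos, at -9.08% in embryo 4, -20.5% in embryo 3, and -34.9%, -36.4% and -40.7% in embryos 1, 5 and 2.

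COL9A3, which encodes the alpha 3 chain of the same molecule, differed in the opposite direction. It stood at 607, 560.4, 626, 630.4 and 535 normalised counts in the lens-removed retinas of embryos 1 to 5, against 516, 461, 447, 425 and 384 in the control retinas. Every lens-removed library lay above every control library. The mean was 592 ± 41.96 in lens-removed and 447 ± 48.5 in control retinas (SD, n = 5 each). The within-embryo log2 change averaged 0.41 ± 0.14 (SD, n = 5), or 1.33-fold, and ranged between 17.6% higher in embryo 1 and 48.3% higher in embryo 4. Thus 2 of the 3 chains had groups that did not overlap. Among all tested genes this held for 6.41% with every lens-removed library above every control library and for 7.27% with every one below, 13.7% in all. A change of the same sign in 5 of 5 embryos, as in COL9A1 and COL9A3, was seen in 14.7% of tested genes upward and 17.2% downward. Since the contrast chose the members, nothing is read from these shares.

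COL9A2, which encodes the alpha 2 chain that bears the chondroitin sulfate chain, had the least even change within embryos of the 3 chains. It stood at 294, 359, 384, 439.6 and 358 normalised counts in the lens-removed retinas of embryos 1 to 5, against 281, 312, 229.7, 313 and 419.8 in the control retinas. The groups overlapped. The control retina of embryo 5 lay above 4 of the 5 lens-removed libraries. The lens-removed retina of embryo 1 lay below the control retinas of embryos 2 and 4, so the groups overlapped without embryo 5 too. Within embryos the lens-removed retina was higher in 4 of 5, by between 4.59% in embryo 1 and 67.2% in embryo 3, while in embryo 5 the change was -14.6%. The mean was 367 ± 52.4 in lens-removed and 311 ± 69.5 in control retinas (SD, n = 5 each), and the log2 change averaged 0.25 ± 0.37. Without embryo 5 the means were 369 ± 60.2 in lens-removed and 284 ± 39.0 in control retinas (SD, n = 4 each), and the log2 change averaged 0.37. Without embryo 3, whose control library held the lowest COL9A2 level of all 10, it averaged 0.13.

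**Figure D1:**
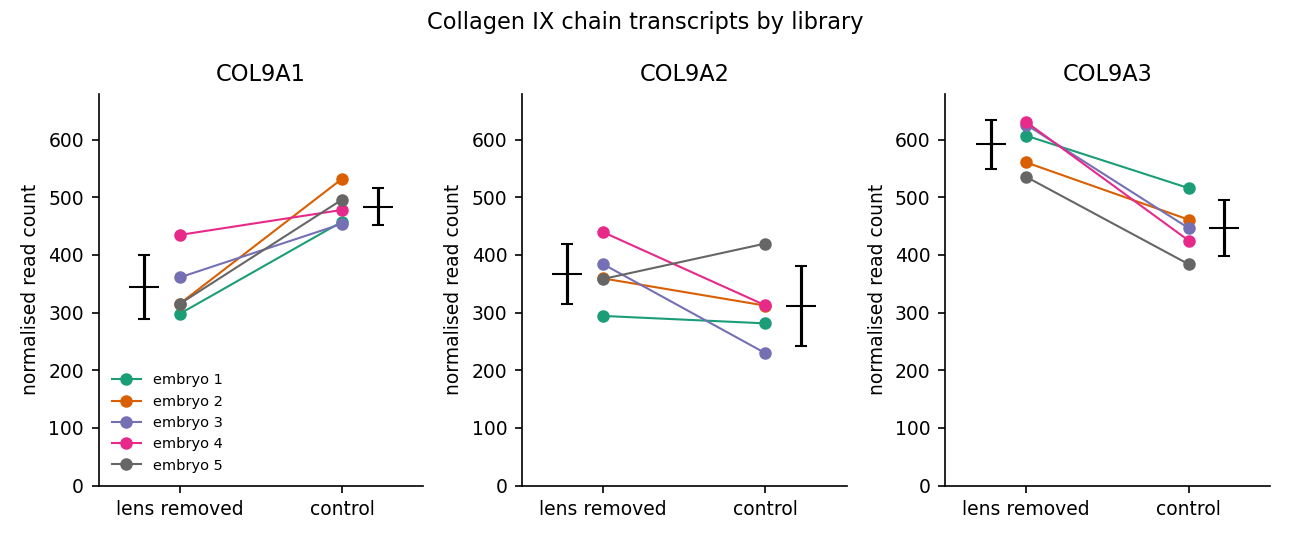
Normalised read count of COL9A1, COL9A2 and COL9A3 (y axis, from 0) in each lens-removed and control retina. Lines join the retinas of 1 embryo, and black bars give mean and SD (n = 5). For COL9A1 all 5 lines are lower on the lens-removed side, for COL9A3 all 5 are higher, and for COL9A2 the control point of embryo 5, at 419.8, lies above 4 of the 5 lens-removed points.

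The spread among libraries of a group holds differences between embryos, dissection and library preparation together, since each retina gave 1 library. For COL9A1 the coefficient of variation was 16.1% over lens-removed and 6.60% over control libraries. For COL9A2 it was 14.3% over lens-removed and 22.3% over control libraries, and for COL9A3 7.09% over lens-removed and 10.9% over control libraries. The median over the 758 tested genes with a mean between 200 and 800 was 7.79% over lens-removed and 8.33% over control libraries. COL9A1 therefore varied more than the median of such genes in the lens-removed retinas and less in the control retinas, and COL9A2 varied more in both. Of the 30 member values, 25 were whole numbers of reads and 5 lay midway between whole numbers. For this count, values very close to a whole or midway number were first set to it. How the authors counted reads that fit more than 1 feature is not stated in the labels or the header.

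The ratio of 2 chains within a library does not depend on how the library was scaled. Read counts also depend on transcript length, which the table does not give, so a ratio says nothing of how many transcripts of each chain there were and only its change is compared. COL9A3 over COL9A1 was 2.04, 1.78, 1.73, 1.45 and 1.70 in the lens-removed retinas of embryos 1 to 5, against 1.13, 0.867, 0.984, 0.889 and 0.774 in the control retinas. The lowest lens-removed ratio (embryo 4) exceeded the highest control ratio (embryo 1). Its log2 value changed by 0.91 ± 0.17 within embryos (SD, n = 5), or 1.88-fold, and by 0.71 to 1.13 in single embryos. This change was more alike among embryos, relative to its size, than that of either chain alone. The 2 chains changed in opposite directions, so the sizes of their changes add in the ratio, and nothing further is read from this.

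COL9A2 over COL9A1 behaved in the same way. It was 0.987, 1.14, 1.06, 1.01 and 1.14 in the lens-removed retinas of embryos 1 to 5, against 0.615, 0.587, 0.506, 0.654 and 0.846 in the control retinas, and again the groups did not overlap. The log2 change averaged 0.75 ± 0.26 (1.69-fold) and was positive in 5 of 5 embryos, including embryo 5, where the level of COL9A2 itself was lower. COL9A3 over COL9A2 was 2.06, 1.56, 1.63, 1.43 and 1.49 in the lens-removed retinas of embryos 1 to 5, against 1.83, 1.48, 1.94, 1.36 and 0.915 in the control retinas. These groups overlapped. Its log2 change averaged 0.16 ± 0.35, and 0.017 ± 0.19 without embryo 5 (SD, n = 4). In single embryos it was 0.17, 0.078, -0.25, 0.077 and 0.71, and without embryo 3 the mean was 0.26. COL9A1 was lower relative to both other chains in all 5 embryos. The ratios were among the values that chose the members, and no share over other pairs of genes was computed. Nothing is therefore read from the lack of overlap in the ratios.

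**Figure D2:**
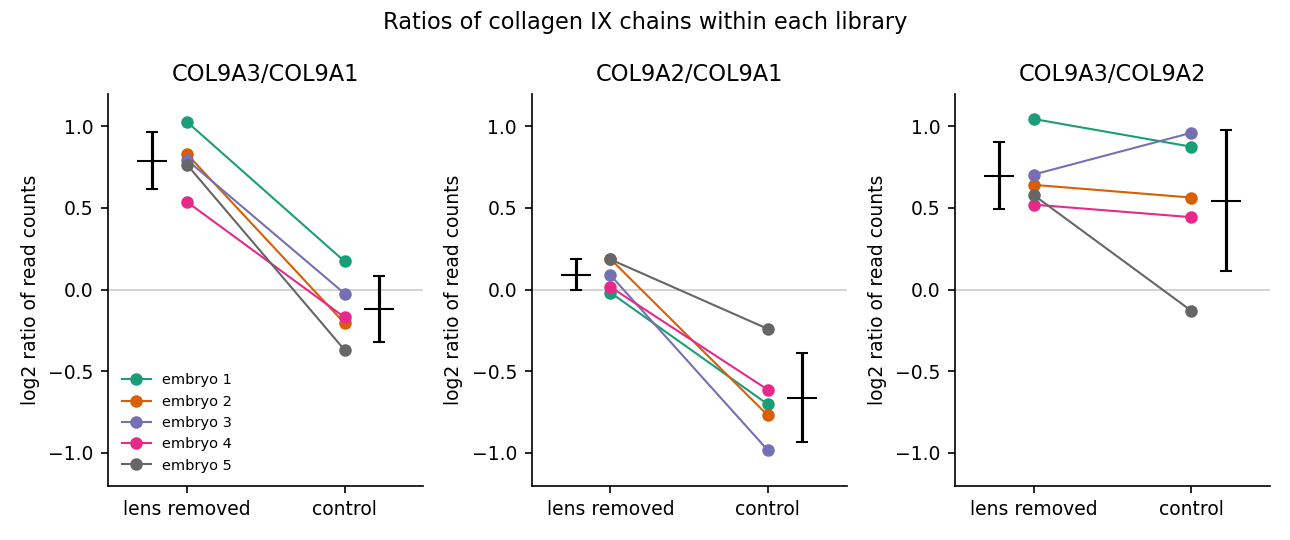
Log2 ratio of the read counts of 2 collagen IX chains within each library (y axis), for lens-removed and control retinas. Lines join the retinas of 1 embryo, and black bars give mean and SD (n = 5). COL9A3/COL9A1 and COL9A2/COL9A1 lie higher in every lens-removed library than in any control library, whereas COL9A3/COL9A2 overlaps and embryo 5 has the steepest line.

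Summed over the 3 chains, the levels of both eyes lay close together. The sum averaged 1304 ± 132 normalised counts in lens-removed and 1241 ± 71.9 in control retinas (SD, n = 5 each). Within embryos its change was 21.3% and 23.7% in embryos 3 and 4, and -4.46%, -5.38% and -6.99% in embryos 1, 2 and 5. What differed more evenly was the make-up of the sum. COL9A1 took 26.3 ± 1.54% of the collagen IX reads in lens-removed and 39.0 ± 1.71% in control retinas. COL9A3 took 45.6 ± 3.18% in lens-removed and 36.1 ± 4.52% in control retinas, and COL9A2 28.1 ± 2.08% in lens-removed and 24.9 ± 4.57% in control retinas (SD, n = 5 each).

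The embryos could be compared with the partner collagens on whose fibrils collagen IX sits. COL2A1 encodes the chain of collagen II and COL11A1 a chain of collagen XI. Both had their highest within-embryo log2 change in embryo 3 (1.07 for COL2A1, 0.37 for COL11A1) and their next highest in embryo 4 (0.72 and 0.35), as COL9A2 did (0.74 and 0.49). COL2A1 was lower in the lens-removed retina of embryo 1 alone (-0.49), and COL11A1 in those of embryos 1 and 5 (-0.12 and -0.24). COL9A1 was lower in all 5, but least in embryos 4 and 3. Over the 10 libraries the log2 level of COL9A2 had Pearson's r of 0.79 with COL2A1 and 0.68 with COL11A1, and 0.73 and 0.62 after each group's mean was removed. For COL9A1 and COL2A1 r was -0.24, and 0.28 after removal of the means. For COL9A3 and COL2A1 it was 0.23 and -0.32. Among the chains themselves r was -0.68 for COL9A1 and COL9A3, -0.11 for COL9A1 and COL9A2, and 0.25 for COL9A2 and COL9A3, and after removal of the means 0.22, 0.65 and -0.36. These correlations are descriptions. The 10 libraries form 5 pairs from shared embryos, and the levels within a library share its scaling.

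**Figure D3:**
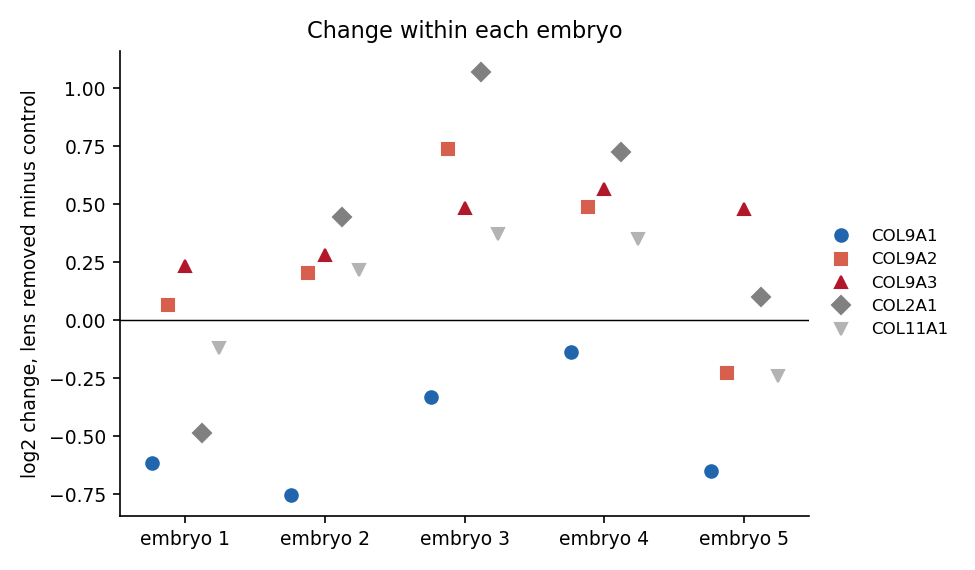
Within-embryo log2 change (lens removed minus control, y axis) of the 3 collagen IX chains and of their fibril partners COL2A1 and COL11A1, for embryos 1 to 5 (x axis). COL9A1 lies below 0 and COL9A3 above 0 in all 5 embryos, while COL9A2, COL2A1 and COL11A1 have their highest points in embryo 3.

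In RefSeq's chicken table (assembly GRCg7b), the 3 genes lie on 3 different chromosomes and each overlaps a neighbouring protein-coding gene. These neighbours were looked at because reads of overlapping genes could be mixed if strand was not used in counting. COL19A1, beside COL9A1, was near the floor of the table (1.08 ± 0.345 normalised counts in lens-removed and 0.995 ± 0.204 in control retinas; SD, n = 5 each, as for the other neighbours). SMAP2, beside COL9A2, was at 73.1 ± 6.45 in lens-removed and 76.0 ± 6.68 in control retinas (log2 change -0.055, limma adjusted p = 0.56). TCFL5, beside COL9A3, was at 9.70 ± 1.54 in lens-removed and 11.9 ± 1.19 in control retinas (log2 change -0.28, limma adjusted p = 0.077). The neighbours on the other side with a test, FAM135A beside COL9A1 and OGFR beside COL9A3, did not pass either (adjusted p = 0.70 and 0.62). The overlapping neighbours had levels below those of the chains. In the control retina of embryo 3, SMAP2 was at 71.5 and COL9A2 at 229.7. Whether reads of overlapping genes were mixed was not tested.

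Other genes of the collagen IX pathway were taken from 8 lists, which hold 129 genes, of which 99 are in the table and 69 were tested. Of these 69, 16 rose and 8 fell after lens removal and 45 did not pass (limma, embryo as block, adjusted p under 0.05). That is 23.2% higher and 11.6% lower, against 10.6% and 12.3% of all tested genes. The median log2 change of the 69 was 0.13, against -0.0013 over all tested genes. These lists, like the marker lists below, were chosen with earlier results of these data known. Nothing is therefore read from such shares or medians. Without embryo 4, 7 rose and 4 fell, while over all genes 387 were called higher and 301 lower. Without embryo 2, 8 rose and 7 fell, against 438 and 377 over all genes. Without embryo 1, 18 rose and 10 fell, against 1378 and 1468 over all genes. A minimum mean of 50 leaves fewer genes tested, both in the lists and over all genes. Of those left, 8 rose and 1 fell in the lists, against 412 and 814 over all genes. These counts are thus not comparable with those of the main filter.

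Among 8 tested genes of fibril collagens, 2 rose, 0 fell and 6 did not pass (median log2 change 0.25), with 3 of the 8 at an unadjusted p under 0.05. Without embryo 5, 4 rose, COL1A2 (log2 change 0.48, adjusted p = 0.013) and COL27A1 (0.38, adjusted p = 0.042) being added; without embryo 2, 0 rose, and without embryo 1, 3 rose and 1 fell. COL5A1, which encodes a chain of collagen V that helps to set fibril width, rose to 200.3 ± 35.1 in lens-removed retinas, against 117 ± 26.3 in control retinas (log2 change 0.78, SE 0.17, adjusted p = 0.013, higher in 5 of 5 embryos). This call was lost without embryo 2 (adjusted p = 0.054) and without embryo 4 (0.070). COL24A1, a minor fibrillar collagen, rose to 27.5 ± 4.00 in lens-removed retinas, against 21.8 ± 3.99 in control retinas (adjusted p = 0.015), and was lost without embryo 2 (0.075) and with no replicate block (0.10). COL2A1 was at 1262 ± 318 in lens-removed and 982 ± 310.1 in control retinas (log2 change 0.37, SE 0.18, adjusted p = 0.18; 0.59 with adjusted p = 0.014 without embryo 1), and COL11A1 at 175 ± 5.84 in lens-removed and 163 ± 26.8 in control retinas (adjusted p = 0.41). Of the relatives of collagen IX that also sit on fibrils (FACIT collagens), 1 of 7 was tested. COL22A1 rose to 17.6 ± 4.62 in lens-removed retinas, against 8.55 ± 2.50 in control retinas (log2 change 0.96, SE 0.093, adjusted p = 0.00035).

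Of 19 tested genes that fold, modify or crosslink collagen, 5 rose, 1 fell and 13 did not pass (median log2 change 0.10). The number that rose was 0 without embryo 4, 2 without embryo 2 or with no replicate block, and 3 without embryo 1 or embryo 5. LOXL3, a lysyl oxidase-like enzyme whose human gene, like those of collagen IX, is linked to Stickler syndrome, fell. It was at 9.95, 18.0, 27.5, 23.6 and 16.4 normalised counts in the lens-removed retinas of embryos 1 to 5, against 36.4, 41.95, 37.8, 40.2 and 50.6 in the control retinas (log2 change -1.14, SE 0.18, adjusted p = 0.0034). The groups did not overlap, and the change was least in embryos 3 and 4, as for COL9A1. Its relative LOXL1 rose to 56.4 ± 10.6 in lens-removed retinas, against 37.0 ± 7.08 in control retinas (log2 change 0.60, adjusted p = 0.012). P4HA1 and P4HA2, catalytic subunits of the prolyl hydroxylase that stabilises the collagen helix, rose by 0.34 and 0.26 on the log2 scale (adjusted p = 0.011 and 0.018). Without embryo 4 the calls of LOXL1 (adjusted p = 0.065), P4HA1 (0.059) and P4HA2 (0.098) were lost, as was that of P4HA2 without embryo 2 (0.059) and with no replicate block (0.11).

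Of 17 tested genes that make chondroitin sulfate, the sugar chain carried by the COL9A2 product, 1 rose, 2 fell and 14 did not pass (median log2 change 0.078). Without embryo 1, 5 rose. CHSY1, which extends the chain, rose to 188 ± 15.97 in lens-removed retinas, against 115 ± 11.3 in control retinas (log2 change 0.70, SE 0.059, adjusted p = 0.00019). DSE, which turns chondroitin into dermatan sulfate, fell to 25.7 ± 4.60 in lens-removed retinas, against 65.2 ± 6.88 in control retinas (log2 change -1.32, SE 0.11, adjusted p = 0.00018). B4GALT7, which builds the link between protein and sugar chain, fell to 28.4 ± 2.66 in lens-removed retinas, against 36.8 ± 2.51 in control retinas (adjusted p = 0.013; 0.074 without embryo 4).

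Of 10 tested matrix partners, 1 rose, 4 fell and 5 did not pass (median log2 change -0.058). Without embryo 4, 0 rose and 1 fell, and 0 rose without embryo 2 or embryo 5. The 4 that fell were FBN2, a fibrillin (18.5 ± 8.22 in lens-removed and 36.4 ± 14.5 in control retinas, adjusted p = 0.00099), NELL2, a secreted neural glycoprotein (56.05 ± 5.35 in lens-removed and 73.4 ± 6.25 in control retinas, adjusted p = 0.011), LUM and THBS1. LUM, a small proteoglycan of corneal stroma that also stands in the mesenchyme list below, was at 7.06 ± 1.81 in lens-removed and 17.6 ± 8.07 in control retinas (adjusted p = 0.014). THBS1, thrombospondin 1, was at 13.9 ± 2.64 in lens-removed and 19.2 ± 2.50 in control retinas (adjusted p = 0.017). FBN2 was not called with no replicate block (adjusted p = 0.077). Without embryo 4, NELL2 (0.055), LUM (0.073) and THBS1 (0.078) were not called, and THBS1 was not called without embryo 2 (0.069). OPTC, a proteoglycan of the vitreous, did not pass (337 ± 57.9 in lens-removed and 356 ± 34.2 in control retinas, adjusted p = 0.56); it was named after its values were seen.

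Of 3 tested collagen receptors, DDR1, a receptor tyrosine kinase, rose to 90.6 ± 8.59 in lens-removed retinas, against 65.6 ± 12.4 in control retinas (adjusted p = 0.014; 0.053 without embryo 2 and 0.076 without embryo 4), and 2 did not pass. Of the SOX factors that in the mouse switch on cartilage collagens, collagen IX genes among them, 1 of 5 was tested. SOX9 rose to 15.3, 24.9, 24.4, 20.8 and 22.3 normalised counts in the lens-removed retinas of embryos 1 to 5, against 6.63, 5.50, 4.46, 4.88 and 7.22 in the control retinas (log2 change 1.74, SE 0.15, adjusted p = 0.00022). The groups did not overlap. Of 10 tested matrix proteases and inhibitors, 4 rose, 1 fell and 5 did not pass (median log2 change 0.17). The number that rose was 3 without embryo 1, 2, 4 or 5, and 5 without embryo 3. The inhibitors TIMP3 and TIMP2 rose to 22.5 ± 4.15 (TIMP3) and 41.2 ± 6.83 (TIMP2) in lens-removed retinas, against 9.12 ± 1.56 and 24.9 ± 3.19 in control retinas (adjusted p = 0.00049 and 0.0043). The protease gene ADAMTS18 rose to 499 ± 36.1 in lens-removed retinas, against 372 ± 48.2 in control retinas (adjusted p = 0.0035), and ADAMTS9 fell to 15.3 ± 4.34 in lens-removed retinas, against 23.1 ± 2.17 in control retinas (adjusted p = 0.0061).

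**Figure D4:**
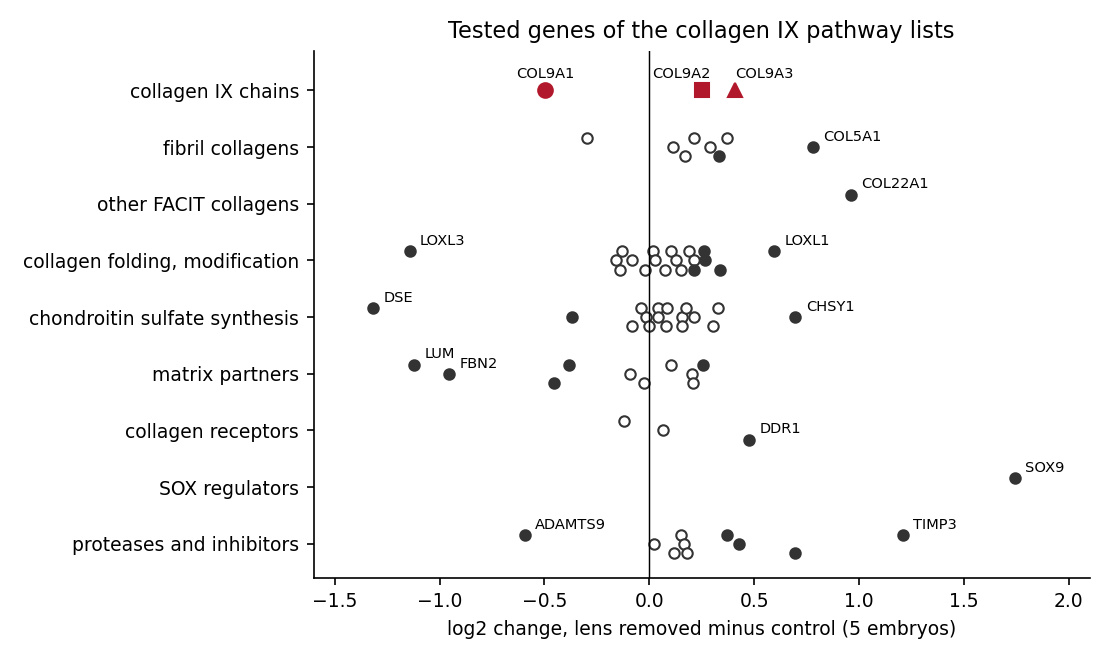
Mean within-embryo log2 change (lens removed minus control, n = 5 embryos, x axis) of the 69 tested genes of 8 pathway lists, filled where limma called them (adjusted p under 0.05) and open where not. The 3 collagen IX chains, shown in red in the top row without a call, lie at -0.50 (COL9A1), 0.25 (COL9A2) and 0.41 (COL9A3), within the range of the lists, which runs from DSE at -1.32 to SOX9 at 1.74.

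The genes whose levels followed each chain most closely over the 10 libraries were different for the 3 chains. By Pearson's r of log2(value + 1) among 9075 other tested genes, those most like COL9A1 were MPP4 (0.95), CLEC19A (0.94), LOXL3 (0.92), SLC24A4 (0.90) and WWC2 (0.90). Those most like COL9A3 were NCAM1 (0.97), HBP1 (0.96), NDRG1 (0.95), GALNT1 (0.94) and HEPH (0.94). Those most like COL9A2 were ACVR1B (0.94), CACNA1G (0.93), LOC112529955 (0.93), ARSG (0.93) and the fibrillar collagen gene COL27A1 (0.92). NCAM1, a neural adhesion molecule, stood at 1149 ± 178 in lens-removed and 634 ± 108 in control retinas, and MPP4, a scaffold protein, at 20.3 ± 3.37 in lens-removed and 34.9 ± 2.51 in control retinas. COL27A1 was at 21.2 ± 1.70 in lens-removed and 17.3 ± 3.20 in control retinas. Such likeness includes the difference between the groups. COL9A3 ranked 8564th and COL9A2 5362nd of 9075 in likeness to COL9A1.

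After each group's mean was removed, the genes most like COL9A1 were AKAP12 (r = 0.93), CD99L2 (0.92), ARID2 (0.86), MGAT5 (0.84) and BIN1 (0.84). For COL9A2 they were LOC112529955 (0.93), COL27A1 (0.92), ARSG (0.92), PAK5 (0.92) and KCNH5 (0.92), so that 3 genes stood among the 5 most like COL9A2 by both measures. For COL9A3 they were SLC45A3 (0.91), NCAM1 (0.88), CDYL2 (0.85), RHPN1 (0.83) and HECW1 (0.83), with NCAM1 in both. On this measure COL9A2 ranked 90th of 9075 in likeness to COL9A1 and COL9A3 2048th, while COL9A1 ranked 1330th and COL9A3 5836th in likeness to COL9A2. AKAP12, a scaffold for protein kinase A, was higher in lens-removed retinas (404 ± 50.7, against 279 ± 14.7 in control retinas), although its deviations followed those of COL9A1, which was lower.

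Markers of the cells that the dissection could hold were summed per library. The 8 listed neural retina genes, among them PAX6, SIX6 and SIX3, summed to 1094 to 1161 normalised counts in lens-removed and 949 to 1173 in control retinas, so the labelled tissue was present in every library. Of the 8, all tested, 4 rose, 1 fell (PAX6) and 3 did not pass, against 10.6% higher and 12.3% lower of all tested genes. The number that rose was 3 without embryo 2, without embryo 4 or with no replicate block. It was 6 without embryo 1, and 5 without embryo 5 or with quantile normalisation. Without embryo 5 the call added was that of SIX6 (limma adjusted p = 0.048). The 12 listed genes of the anterior rim, where COL9A1 is expressed, summed to 807 to 1001 in lens-removed and 1093 to 1345 in control retinas. These sums did not overlap between the groups, and their change within embryos ran from -0.60 to -0.43 on the log2 scale. Most of this difference in the sum, which abundant genes dominate, was that of 1 gene. This was the connexin gene GJA1, which was at 377 ± 44.2 in lens-removed and 699 ± 74.2 in control retinas (SD, n = 5 each). Without GJA1, a split made after seeing the data, the other 11 genes summed to 447 to 561 in lens-removed and 507 to 656 in control retinas, which overlap. CCND2, BMP7 and ZIC2, the most abundant of the 11, did not pass (limma adjusted p = 0.86, 0.43 and 0.17). The change of their sum was -0.18, -0.084, 0.034, 0.0028 and -0.23 in embryos 1 to 5. Gene by gene, 9 of the 11 had a test, of which 4 fell, 1 rose and 4 did not pass. WNT2B fell to 6.63 ± 2.54 in lens-removed retinas, against 34.3 ± 16.3 in control retinas (log2 change -2.16, limma adjusted p = 0.00075). The log2 change was -0.75 for OTX1 (adjusted p = 0.0020), -0.43 for ZIC1 (0.015) and -0.32 for MAB21L2 (0.044). SFRP2 was the 1 that rose (0.49, adjusted p = 0.0028). The calls of ZIC1 and MAB21L2 were lost under some alternatives. Of 10 rim genes with a test, GJA1 included, 5 fell and 1 rose, against 12.3% lower and 10.6% higher of all tested genes. The number that fell was 3 without embryo 2 or without embryo 4. It was 4 without embryo 1, without embryo 5 or with no replicate block, and without embryo 1 the number that rose was 2. In bulk retina, fewer rim cells and less COL9A1 RNA per rim cell cannot be told apart. The change of COL9A1 was least in embryos 3 and 4. In these embryos the sum of the 11 rim genes other than GJA1 was not lower in the lens-removed retina. Single genes of the 11 differed from this sum. WNT2B, OTX1, ZIC1 and MAB21L2 were lower in 5 of 5 embryos and SFRP2 was higher in 5 of 5. The sum of all 12 changed by -0.44 and -0.54 in embryos 3 and 4, against -0.44, -0.60 and -0.43 in embryos 1, 2 and 5. COL9A1 fell most in embryo 2 (-40.7%), where the sum of the 11 genes changed by -0.084. The part of the rim list in the level of COL9A1 was not tested.

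Other tissues that make collagen IX or lie next to the retina were also measured. Of 12 cartilage genes, 3 are in the table: COL2A1, CNMD and HAPLN1. CNMD, chondromodulin, was at 432 ± 45.95 in lens-removed and 470.3 ± 19.3 in control retinas, and HAPLN1 was at 2.02 ± 1.11 in lens-removed and 3.18 ± 1.25 in control retinas (SD, n = 5 each). The other 9, among them ACAN and MATN1, were not analysed here. Of 13 genes of surface ectoderm and corneal epithelium, which lays down collagens II and IX in the early chick cornea, 5 are in the table, and they summed to 41.3 to 47.5 in lens-removed and 43.2 to 55.2 in control retinas. The 8 listed lens genes summed to 127 to 193 in lens-removed and 114 to 169 in control retinas, and the sum was higher in 5 of 5 embryos. CRYBA4 dominated this sum, at 109 ± 24.7 in lens-removed and 86.7 ± 14.8 in control retinas, and was higher in 5 of 5. The other genes were mixed. CRYAB was lower in 5 of 5 embryos and BFSP2 in 4 of 5. ASL1 was higher in 5 of 5, ASL2 and PROX1 in 4 of 5, and CRYBA1 and CRYGN in 3 of 5. Of the 2 tested, CRYBA4 rose and CRYAB fell. CRYBA4 was not called with no replicate block (adjusted p = 0.18) or without embryo 2 (0.062), and CRYAB was not called with no replicate block (0.10), without embryo 4 (0.11) or without embryo 5 (0.068).

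The 11 listed pigment epithelium genes summed to 321 to 443 in lens-removed and 346 to 844 in control retinas. This sum was lower in the lens-removed retina of 5 of 5 embryos (log2 change -0.061 in embryo 1, -0.93 in embryo 5). TRPM1, the most abundant of them, was at 209 ± 11.0 in lens-removed and 281 ± 36.7 in control retinas, and was lower in 5 of 5. In embryo 1 MITF, TYR, DCT, OCA2, MLANA and GPNMB were higher in the lens-removed retina. TYRP1, PMEL, SLC45A2 and RLBP1 were lower there, as was TRPM1. The 10 listed periocular mesenchyme genes summed to 63.8 to 95.4 in lens-removed and 59.5 to 225 in control retinas, with changes of 0.34 in embryo 1 and -1.34 in embryo 5. The 5 listed red blood cell genes, haemoglobin genes among them, summed to 111 to 319 in lens-removed and 30.0 to 378 in control retinas, and were higher in 4 of 5 embryos, with 0 of the 5 passing limma's adjusted test and 4 at an unadjusted p under 0.05. Without embryo 5 all 5 were called higher, among them HBA1 (log2 change 2.04, adjusted p = 0.0020), HBZ (2.11, adjusted p = 0.0047) and HBBR (1.94, adjusted p = 0.0068). No listed marker was at 0 in any library. The change of COL9A1 was -34.9% in embryo 1, where the pigment sum differed least and the mesenchyme sum was higher. It was -36.4% in embryo 5, where both sums were lowest relative to control. In embryos 2, 3 and 4 COL9A1 changed by -40.7%, -20.5% and -9.08%. The log2 change there was -0.65, -0.29 and -0.33 for the pigment sum and -0.50, -0.31 and -0.63 for the mesenchyme sum. COL9A2 was highest among all control libraries in embryo 5, which also had the highest pigment, mesenchyme and red blood cell sums. The part of these tissues in the levels of COL9A1 and COL9A2 was not tested.

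**Figure D5:**
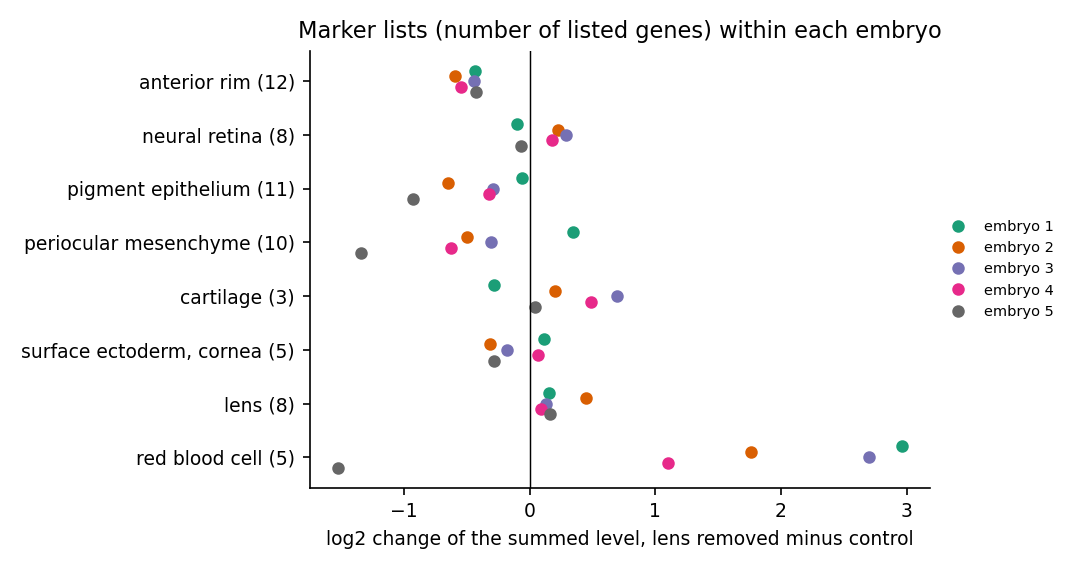
Log2 change of the summed level of 8 marker lists within each embryo (lens removed over control, x axis), with the number of genes in the table in brackets. The rim sum lies between -0.60 and -0.43 in all 5 embryos, mostly through GJA1 (without it, -0.23 to 0.034), while pigment, mesenchyme and red cell genes spread widely, with embryo 5 lowest in each of these 3 lists.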

How the data were processed

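Stranded mRNA libraries of single retinas were read as 75 bp pairs, per the labels' protocols. The authors deposited normalised read counts, a signal scaled to nearly equal totals; for the scaling method, annotation and use of strand, nothing is given in the sources used here. Build GRCg6a, HISAT2 2.1.0, Subread 1.6.2, featureCounts, SAMtools 1.9, FastQC 0.11.8 and Trim Galore 0.6.4 are named, without roles, in the submitters' processing notes. All libraries carry batch number 128, so no batches could be compared. Each of the 12464 genes lies above 1 in at least 5 libraries. Since 89.1% to 91.6% of values were whole multiples of 1 read's worth (tolerance 0.001), whole reads were not recovered for all genes and no count model was used.

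Changes were tested with limma 3.58.1 (R 4.3.3; intensity trend, two-sided) on log2(value + 1), which understates changes of low genes, with the embryo as block, for 9076 genes whose mean reached 10, and p-values were adjusted by Benjamini and Hochberg. The procedure was tested on simulated data. The pairing comes from the titles: both retinas are of 1 embryo, and their deviations from the group means correlated with r = 0.31, 0.76, 0.45, 0.68 and 0.59 in embryos 1 to 5. Ratios of chains carry no pseudocount. Each p-value sets the mean within-embryo change against the spread of that change over the embryos, moderated by limma's intensity trend. That spread holds differences in dissection and library preparation as well as those between embryos.

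Members and gene lists were chosen with earlier results of these data known, and 1 gene of the neural retina list is not reported here. Named are the 3 chains, in each pathway list up to 4 called genes in order of p (else the 2 of highest mean), the 5 genes most like each chain by each correlation, and up to 3 marker genes of highest mean per list. COL2A1, COL11A1, OPTC and the neighbouring genes were added after seeing the data. So were the rim genes WNT2B, OTX1, ZIC1, ZIC2, MAB21L2 and SFRP2. Sums, ratios and figures were made in numpy 2.4.6, matplotlib 3.10.9 and pandas 2.3.3 under Python 3.11.15. Alternatives tried: leaving out each embryo, no replicate block, quantile normalisation, trimmed-mean rescaling, a robust prior for the variance, a minimum mean of 50 or none, and a pseudocount of 5 or 0.5.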

Additional observations from a re-analysis of the deposited data

Results flagged for a closer look

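In 77 groups of 5 values (levels, ratios and changes of the chains, marker sums, and named pathway genes), the sample farthest from the rest was compared with the range of its group by Dixon's ratio, with a critical value of 0.71. Chance alone marks about 1 group in 20. Of the 77 groups 6 were marked, and none of them was a level, ratio or change of a collagen IX chain. In embryo 5 the control library was high in the red blood cell sum (378) and in CHSY1 (136), and low in ADAMTS18 (287). The lens-removed library of embryo 5 was high in ADAMTS9 (23.0) and DSE (33.7) and low in P4HA2 (65.1). All 6 marks thus fell on embryo 5.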

How the results depend on the processing

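The log2 changes of the chains kept their direction under every alternative run. Leaving out each embryo in turn gave -0.59 to -0.43 for COL9A1, 0.13 to 0.37 for COL9A2 and 0.37 to 0.45 for COL9A3, and 0.85 to 0.96, 0.67 to 0.84 and 0.017 to 0.26 for the ratios COL9A3/COL9A1, COL9A2/COL9A1 and COL9A3/COL9A2. The other alternatives gave -0.52 to -0.45, 0.23 to 0.30 and 0.39 to 0.47 for the chains; a pseudocount of 1 in the ratios was added after seeing the data. With no replicate block the mean changes of the chains are the same by construction (-0.50 for COL9A1); 701 genes were called higher and 783 lower, and 12 and 7 in the pathway lists. Leaving out an embryo gave 387 to 1378 genes higher and 301 to 1468 lower; in the pathway lists it gave 7 to 18 higher and 4 to 10 lower. Restricted to genes with a mean of 50 or more, 412 genes were called higher and 814 lower. In the pathway lists, where fewer genes are then tested, 8 were called higher and 1 lower. Of 20 called pathway genes named by the rule, which keeps those of smallest p in each list, 9 were called under every alternative that tests them. The called pathway genes that the rule left unnamed each lost their call under several alternatives. No named gene changed direction with a call. The cause of the calls lost without an embryo was not tested. With 5 embryos and 1 library per retina, differences between embryos and technical spread cannot be told apart.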
